A study of Mus musculus with 12 samples.

Results

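Collagens are the 44 chain genes among the 19938 genes that the arrays measured with a probe set of a single gene symbol. They were chosen by name, as Col followed by a type number, the letter a and a chain number, and where a gene had more than 1 probe set (Col6a5 and Col6a6) the one with the highest mean over the 12 arrays was used. By class, 11 genes encode chains of fibrillar collagens, 8 encode chains of basement membranes and 25 encode other chains. After the filter on low values, 42 of the 44 were tested among 14953 genes; Col10a1 and Col28a1 fell under it.

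The arrays measured total RNA of neurons that had been differentiated for 16 days from mouse embryonic stem cells of the line D3, by way of embryoid bodies, which are aggregates grown without the self-renewal factor LIF. Unmodified cells (D3), cells with a scrambled sequence (siSCR), cells with knockdown of PRMT1 (siPRMT1) and cells with knockdown of PRMT8 (siPRMT8) were each measured in 3 biological replicates; all 4 groups share the D3 background, and the labels record no treatment for the D3 arrays. PRMT1 and PRMT8 are protein arginine methyltransferases, and the design asks what their loss does to the neurons. Each group is 1 line, so a knockdown and the history of its line cannot be told apart. Nothing in the labels ties the replicates to separate differentiations; the p-values therefore reflect the spread between these samples alone, which may be technical. In whole cultures, fewer cells of a type and less RNA per cell cannot be told apart.

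Collagens are triple helices of chains that are hydroxylated and folded in the endoplasmic reticulum, trimmed outside the cell and assembled into fibrils, sheets or filaments. Fibrillar types I, III and V build the fibres of connective tissue, type IV builds the sheet of every basement membrane, and types XII and XIV sit on the surface of fibrils. In the developing nervous system, fibrillar chains come mainly from mesenchyme and the meninges, and type IV chains from the cells that border a basement membrane.

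Prmt1 measured 8.69, 8.86 and 8.71 in D3, 8.84, 8.74 and 8.86 in siSCR, 7.72, 7.95 and 7.59 in siPRMT1 and 9.27, 9.20 and 9.27 in siPRMT8 (log2 expression, replicates 1 to 3 here and throughout). For Prmt1 the siPRMT1 arrays lay below all others, and the siPRMT8 arrays lay above all others. In siPRMT1, Prmt1 fell by 1.06 against siSCR (adjusted p = 0.000115, limma with Benjamini-Hochberg adjustment over all genes tested, as for every adjusted p here). Prmt8 measured 7.37, 7.41 and 7.40 in D3, 6.60, 7.18 and 7.10 in siSCR, 6.35, 6.89 and 6.67 in siPRMT1 and 6.44, 6.17 and 6.44 in siPRMT8. It fell by 0.61 in siPRMT8 against siSCR (adjusted p = 0.0171) and by 1.04 against D3 (adjusted p = 0.000993). In siPRMT1 it was 0.32 below siSCR without passing (adjusted p = 0.177) and fell by 0.75 against D3 (adjusted p = 0.00488), so Prmt8 was also lower in the siPRMT1 arrays than in D3, and siPRMT1 replicate 1 lay within the range of siPRMT8. The 8 neuron markers had a mean level of 8.59 to 8.78 in siPRMT1, 8.75 to 8.93 in siPRMT8, 8.90 to 10.00 in siSCR and 9.87 to 10.02 in D3. A pair of arrays stood apart from their groups. On the first principal component (61.4% of the variance) siSCR replicate 1 lay at 0.105, where the other 5 control arrays lay from -26.2 to -21.6 and the knockdown arrays from 13.6 to 25.7, and its neuron marker level was the lowest of the controls. The array siPRMT1 replicate 2 had the narrowest spread of values (interquartile range 2.89, against up to 3.13). It also had the highest value of all 12 arrays for 28 of the 44 collagens. For the collagens and listed genes that are named, results are therefore also given without these 2 arrays where that ends a call.

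The upstream sequences are shown for the collagens that passed as lower in siPRMT1 than in siSCR and have an entry in the RefSeq promoter table. In this table (build GRCm38.p6), 35 of the 44 genes matched. Each is the 250 bases before the annotated start, 5′ to 3′ on the gene's strand. Capitals mark exact matches, on either strand, to a CCAAT box (CCAAT), a GC box (GGGCGG) or a TATA box (TATAAA). The window of Col1a2 lies at chr6:4505368-4505617 on the plus strand, that of Col3a1 at chr1:45311288-45311537 on the plus strand, that of Col6a3 at chr1:90843972-90844221 on the minus strand and that of Col8a1 at chr16:57754738-57754987 on the minus strand. 
Col1a2: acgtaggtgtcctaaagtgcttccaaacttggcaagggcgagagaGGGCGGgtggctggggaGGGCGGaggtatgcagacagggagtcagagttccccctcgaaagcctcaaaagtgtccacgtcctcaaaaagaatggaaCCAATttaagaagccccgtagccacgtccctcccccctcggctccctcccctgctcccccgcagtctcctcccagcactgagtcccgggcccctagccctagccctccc
Col3a1: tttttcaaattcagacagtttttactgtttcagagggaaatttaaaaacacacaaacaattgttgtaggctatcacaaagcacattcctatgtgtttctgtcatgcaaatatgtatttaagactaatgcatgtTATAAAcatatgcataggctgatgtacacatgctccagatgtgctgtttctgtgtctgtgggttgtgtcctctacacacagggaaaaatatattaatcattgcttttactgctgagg
Col6a3: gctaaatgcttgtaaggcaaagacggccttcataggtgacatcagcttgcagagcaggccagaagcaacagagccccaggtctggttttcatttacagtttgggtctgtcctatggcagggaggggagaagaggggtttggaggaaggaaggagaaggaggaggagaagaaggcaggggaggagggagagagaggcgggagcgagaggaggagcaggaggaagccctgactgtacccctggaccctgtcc
Col8a1: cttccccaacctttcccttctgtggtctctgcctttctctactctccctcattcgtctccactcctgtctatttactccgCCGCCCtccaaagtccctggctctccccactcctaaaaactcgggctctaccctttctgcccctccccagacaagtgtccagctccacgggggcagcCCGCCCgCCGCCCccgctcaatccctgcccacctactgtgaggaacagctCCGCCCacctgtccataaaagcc
No box had a match in all 4 windows. Col1a2 held 1 CCAAT match, which begins 109 bases before the start, and 2 GC box matches; Col3a1 held 1 TATA match, which begins 117 bases before the start; Col8a1 held 4 GC box matches in the reverse orientation; Col6a3 held none. Among all 32851 windows of this length, 33.8% held a CCAAT match, 32.7% a GC box match and 12.4% a TATA match. Among the 38 collagen windows the shares were 34.2%, 57.9% and 13.2%. Col12a1, which also passed as lower in siPRMT1 than in siSCR, has no entry. Col5a2 and Col14a1, which passed in other comparisons only, have none either.

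Few collagens passed the test in any comparison, and most of those that did were lower in the knockdown. Against siSCR, 5 of the 42 tested collagens fell in siPRMT1 and none rose (11.9% of those tested, against 18.7% of all genes tested, of which 7.18% were higher and 11.6% lower). In siPRMT8 against siSCR, 5 fell and 1 rose (14.3%, against 23.8% of all genes tested, 10.7% higher and 13.2% lower). Against D3, 3 fell and 1 rose in siPRMT1 (9.52%, against 26.4%, with 11.7% higher and 14.7% lower), and 1 fell and 1 rose in siPRMT8 (4.76%, against 27.7%, with 12.5% higher and 15.2% lower). With 1 array left out at a time the 4 counts ran from 1 to 7, 3 to 5, 1 to 8 and 1 to 2. The share of collagens that passed was below the share of all genes in each of these comparisons under this filter, and comparisons with the same control share its arrays. With the lowest 50% of genes left out, 14 collagens were tested, and in siPRMT1 against siSCR 6 of them fell (42.9%, against 24.0% of all genes then tested): Col12a1, Col1a2, Col3a1 and Col8a1, and with them Col1a1 and Col14a1. In the other comparisons under that filter the share stayed below that of all genes, with 3 of 14 in siPRMT8 against siSCR (21.4%, against 31.5%), 4 in siPRMT1 against D3 (28.6%, against 33.0%) and 2 in siPRMT8 against D3 (14.3%, against 35.6%). All told, 9 collagen genes passed somewhere: the fibrillar Col1a2, Col3a1, Col5a2 and Col5a3, and Col6a1, Col6a3, Col8a1, Col12a1 and Col14a1 of the other classes. No basement membrane chain passed.

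The 3 arrays of one group lay wholly above or below those of the other for 15 of the 42 tested collagens in siPRMT1 against siSCR (35.7%, against 30% of all genes tested) and for 12 in siPRMT8 against siSCR (28.6%, against 41.8%). Against D3 this held for 12 in siPRMT1 (28.6%, against 44.2%) and 13 in siPRMT8 (31.0%, against 52.6%). Among fibrillar chains it held for 6 of 11 in each knockdown against siSCR, and among basement membrane chains for 3 and 2 of 8.

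The median difference over the 44 members was 0.089 in siPRMT1 and 0.028 in siPRMT8 against siSCR. Over all 19938 genes, before the filter, it was 0.056 and 0.025. Against D3 the members' median was 0.12 and 0.067, and that of all genes 0.075 and 0.045. In siPRMT1 against siSCR the fibrillar median was 0.085, the basement membrane median 0.12 and the median of other chains 0.073. These medians rest on siPRMT1 replicate 2 and on the filter. Without that array they were 0.0087, -0.0036 and -0.018. Over the 14 members left with the lowest 50% of genes left out (5 fibrillar, 3 basement membrane and 6 other chains), they were -0.22, 0.20 and -0.086. Fibrillar differences spread from a fall of 0.45 to 0.25 above siSCR, while those of basement membrane chains ran from -0.13 to 0.28.

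**Figure D1:**
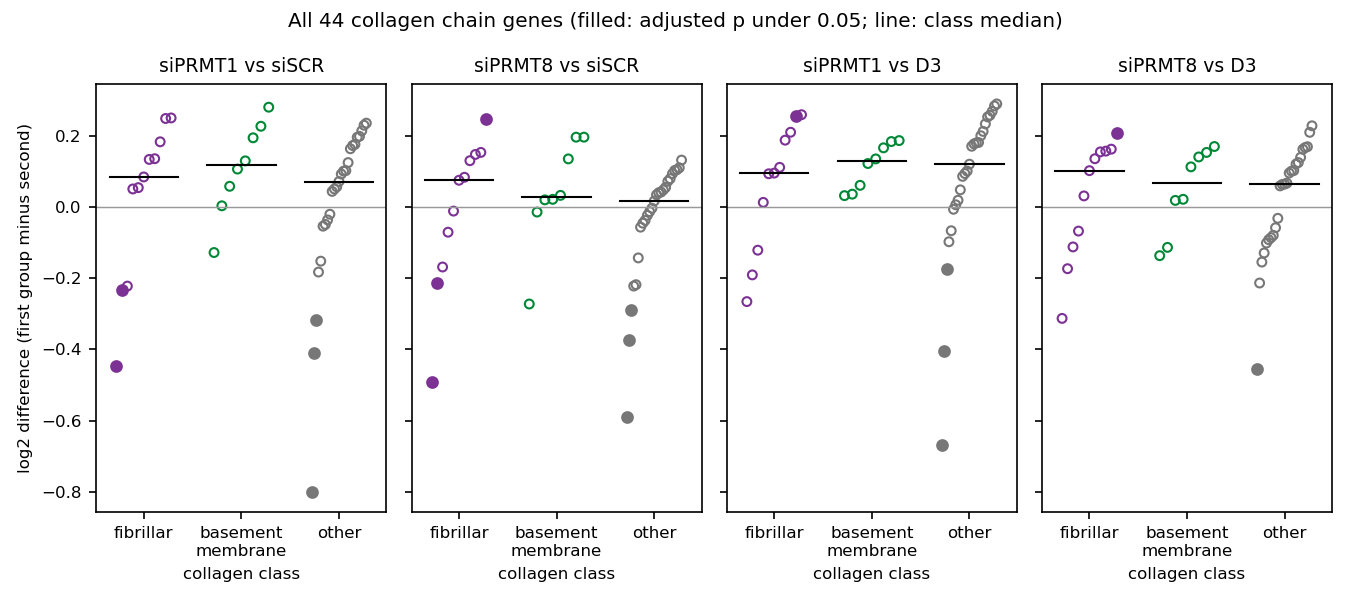
Log2 difference of each of the 44 collagen chain genes (points) in 4 comparisons, by collagen class; filled points passed at an adjusted p under 0.05 and lines mark class medians. The lowest point in each class of other chains is Col12a1, at -0.80, -0.59, -0.67 and -0.46 from left to right, and no basement membrane point is filled.

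Col12a1, which encodes the chain of a fibril-associated collagen with interrupted triple helices, had the largest difference of all members and was the only collagen that passed against both controls in both knockdowns. It measured 7.39, 7.21 and 7.32 in D3 and 7.46, 7.48 and 7.38 in siSCR. In siPRMT1 it measured 6.81, 6.48 and 6.62, and in siPRMT8 6.71, 6.92 and 6.92. Every knockdown array lay below every control array. Against siSCR, Col12a1 fell by 0.80 in siPRMT1 (SE 0.0913; 1.74-fold lower; adjusted p = 0.000512) and by 0.59 in siPRMT8 (1.50-fold lower; adjusted p = 0.00174). Against D3 it fell by 0.67 (adjusted p = 0.000601) and by 0.46 (adjusted p = 0.0039). The knockdown arrays overlapped with each other, and siPRMT1 was 0.21 below siPRMT8 without passing (95% interval -0.413 to -0.0134; adjusted p = 0.38). The call held in all 4 comparisons under every alternative and without any single array.

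Col14a1, another chain that sits on fibrils and is closely related to Col12a1, differed far less. It measured 7.13, 7.07 and 7.11 in D3, 7.04, 7.12 and 7.09 in siSCR, 6.89, 6.95 and 6.95 in siPRMT1 and 6.98, 7.07 and 7.02 in siPRMT8. The siPRMT1 arrays lay below all control arrays, and the siPRMT8 arrays, from 6.98 to 7.07, lay between and overlapped with siSCR. Col14a1 fell by 0.17 in siPRMT1 against D3 (adjusted p = 0.0316) and was 0.15 below siSCR without passing (adjusted p = 0.0694). The call against D3 was lost with quantile normalisation, no filter, the fit of the 2 groups and a trended variance (adjusted p 0.0507 to 0.0715) and without siPRMT1 replicate 1 (0.0776) or 3 (0.0621) or D3 replicate 1 (0.103), 2 (0.0605) or 3 (0.0908). Without siSCR replicate 1 it passed against siSCR (adjusted p = 0.0474).

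Type I collagen combines chains of Col1a1 and Col1a2 in a single trimer. Col1a2 measured 7.74, 7.49 and 7.70 in D3, 7.87, 7.79 and 7.81 in siSCR, 7.48, 7.17 and 7.49 in siPRMT1 and 7.24, 7.55 and 7.20 in siPRMT8. All 6 knockdown arrays lay below the siSCR arrays, and siPRMT8 overlapped with D3. Against siSCR, Col1a2 fell by 0.45 in siPRMT1 (SE 0.112; 1.36-fold lower; adjusted p = 0.018) and by 0.49 in siPRMT8 (1.41-fold lower; adjusted p = 0.00974). Against D3 it was 0.27 and 0.31 lower and did not pass (adjusted p = 0.1 and 0.0575). The siPRMT8 call against siSCR held without any single array, while the siPRMT1 call was lost without siSCR replicate 2 (adjusted p = 0.0528) or 3 (0.0579) and in the fit of the 2 groups only (0.0669). Without siPRMT8 replicate 2 or D3 replicate 2, the difference of siPRMT8 from D3 passed (adjusted p = 0.0181 and 0.0445).

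Its partner Col1a1 measured 7.47, 7.50 and 7.63 in D3, 7.70, 7.53 and 7.67 in siSCR, 7.42, 7.48 and 7.33 in siPRMT1 and 7.46, 7.55 and 7.39 in siPRMT8. The siPRMT1 arrays lay below those of siSCR, and the siPRMT8 arrays overlapped with them. Col1a1 was 0.22 below siSCR in siPRMT1 (adjusted p = 0.0549) and 0.17 below in siPRMT8 (adjusted p = 0.118), so neither difference passed.

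Col3a1, the single chain of type III collagen, which forms fibres together with type I, measured 7.69, 7.58 and 7.67 in D3, 7.68, 7.68 and 7.69 in siSCR, 7.52, 7.35 and 7.50 in siPRMT1 and 7.50, 7.55 and 7.37 in siPRMT8. Every knockdown array lay below every control array, by a small margin. Against siSCR, Col3a1 fell by 0.23 in siPRMT1 (1.17-fold lower; adjusted p = 0.0354) and by 0.21 in siPRMT8 (1.16-fold lower; adjusted p = 0.0412). Against D3 it was 0.19 and 0.17 lower without passing (adjusted p = 0.0594 and 0.0817). The siPRMT1 call was lost without siPRMT1 replicate 2 (adjusted p = 0.0767) or 3 (0.0597) or siSCR replicate 2 (0.0959) or 3 (0.103). The siPRMT8 call was lost without siPRMT8 replicate 1 (0.0772) or 3 (0.16) or siSCR replicate 1 (0.0617), 2 (0.0959) or 3 (0.105). Both were lost with quantile normalisation, with no filter and in the fit of the 2 groups (adjusted p 0.0529 to 0.139).

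Type V collagen nucleates fibrils of type I. Its chain Col5a2 measured 6.32, 6.32 and 6.34 in D3, 6.31, 6.32 and 6.25 in siSCR, 6.41, 6.46 and 6.41 in siPRMT1 and 6.59, 6.62 and 6.41 in siPRMT8. All knockdown arrays lay above all control arrays. Col5a2 rose by 0.25 in siPRMT8 against siSCR (1.19-fold; adjusted p = 0.0163) and by 0.21 against D3 (1.16-fold; adjusted p = 0.0287). In siPRMT1 the differences were 0.13 (adjusted p = 0.161) and 0.096 (adjusted p = 0.276). The call against siSCR was lost without siPRMT8 replicate 1 (0.0622) or 2 (0.0606) or siSCR replicate 3 (0.065), and in the fit of the 2 groups (0.0554). The call against D3 was lost without siPRMT8 replicate 1 (0.103) or 2 (0.107) or D3 replicate 1 (0.0836), 2 (0.0772) or 3 (0.0712).

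Col5a3 measured 6.20, 6.24 and 6.29 in D3, 6.25, 6.19 and 6.33 in siSCR, 6.40, 6.72 and 6.40 in siPRMT1 and 6.50, 6.34 and 6.36 in siPRMT8. All knockdown arrays lay above all control arrays, and siPRMT1 replicate 2 lay highest. Col5a3 rose by 0.26 in siPRMT1 against D3 (1.20-fold; adjusted p = 0.0497), at the edge of the threshold. It did not pass without siPRMT1 replicate 2 (adjusted p = 0.115) or D3 replicate 1 (0.142), 2 (0.115) or 3 (0.0839), nor with quantile normalisation, no filter, a trended variance or the fit of the 2 groups (0.0526 to 0.105). Col5a1, which is part of most type V trimers, differed from siSCR by 0.052 in siPRMT1 (95% interval -0.0782 to 0.181) and from D3 by 0.094 (-0.0354 to 0.224).

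**Figure D2:**
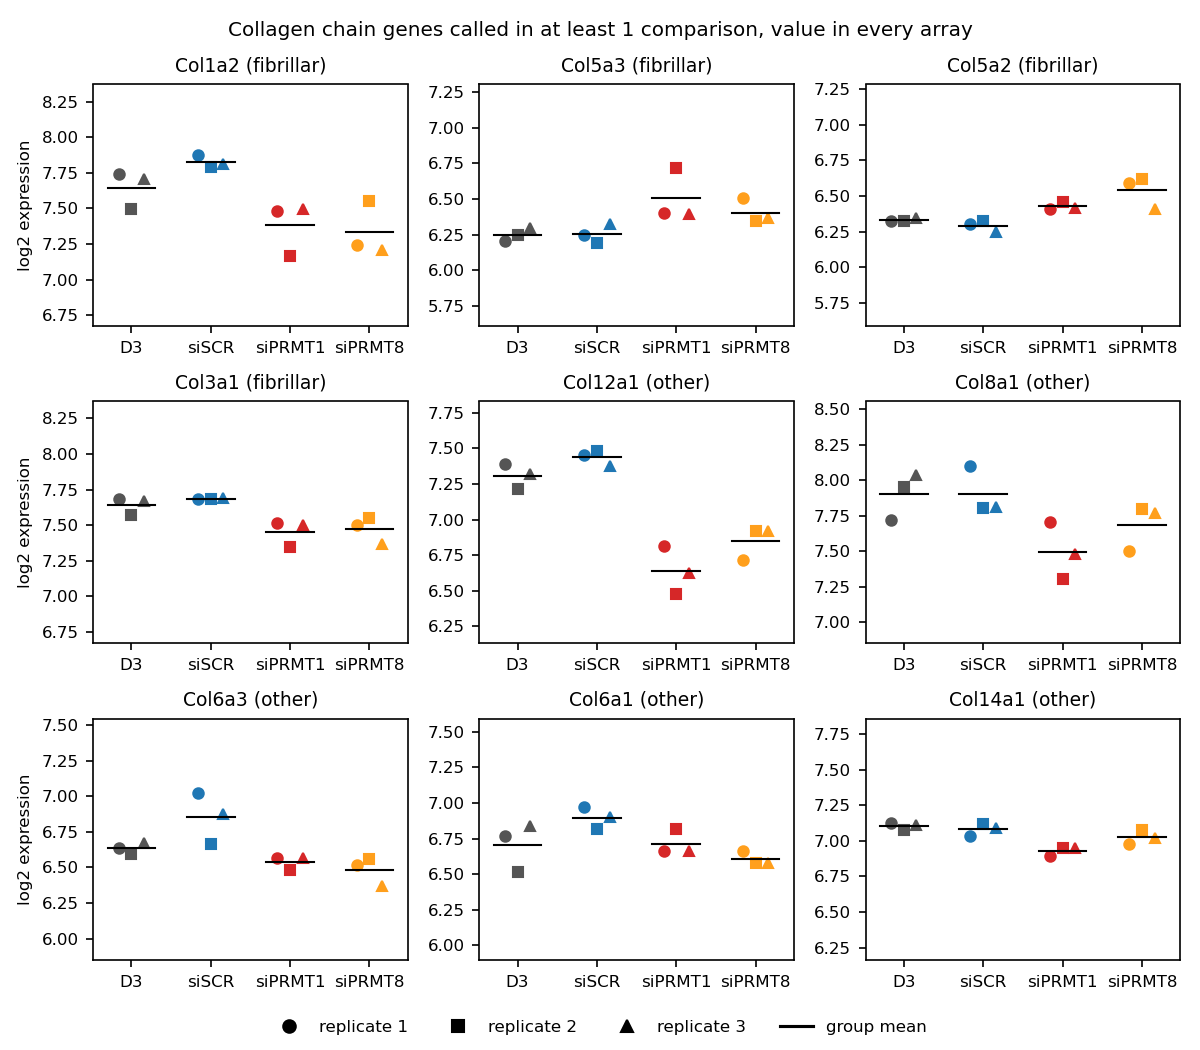
Log2 expression in every array of the 9 collagen genes that passed in at least 1 comparison; symbols mark the replicate and lines the group means, and every panel spans the same range of log2 units. Knockdown and control arrays are apart in Col12a1, Col3a1, Col6a3, Col5a2 and Col5a3 and overlap in the other 4 panels.

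The remaining fibrillar chains, Col2a1, Col11a1, Col11a2, Col24a1 and Col27a1, passed nowhere. Col24a1 came closest, 0.26 above D3 in siPRMT1 (adjusted p = 0.0583). Col2a1, the chain of cartilage collagen, had group means of 6.71 in D3, 6.74 in siSCR, 6.92 in siPRMT1 and 6.87 in siPRMT8. Col11a1 and Col11a2, which join Col2a1 in cartilage fibrils, had group means that spanned 0.13 and 0.11.

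Type VI collagen forms beaded filaments from one chain each of Col6a1, Col6a2 and Col6a3. Col6a3 measured 6.64, 6.59 and 6.67 in D3, 7.03, 6.67 and 6.87 in siSCR, 6.56, 6.48 and 6.57 in siPRMT1 and 6.52, 6.56 and 6.37 in siPRMT8. The knockdown arrays lay below all controls, closely below D3, and siSCR was itself above D3 in mean (0.22; adjusted p = 0.442). Against siSCR, Col6a3 fell by 0.32 in siPRMT1 (1.25-fold lower; adjusted p = 0.0258) and by 0.37 in siPRMT8 (1.30-fold lower; adjusted p = 0.0106), and it was 0.097 and 0.15 below D3 without passing (adjusted p = 0.421 and 0.213). The siPRMT8 call was lost without siPRMT8 replicate 3 (0.052). The siPRMT1 call was lost without siPRMT1 replicate 2 (0.05003) or 3 (0.0576) or siSCR replicate 1 (0.057) or 3 (0.0843), and in the fit of the 2 groups (0.129).

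Col6a1 measured 6.77, 6.52 and 6.84 in D3, 6.97, 6.82 and 6.90 in siSCR, 6.66, 6.82 and 6.66 in siPRMT1 and 6.66, 6.58 and 6.58 in siPRMT8. The siPRMT8 arrays lay below those of siSCR and within those of D3. Col6a1 fell by 0.29 in siPRMT8 against siSCR (1.22-fold lower; adjusted p = 0.0296), and differed from D3 by -0.10 (adjusted p = 0.415). The call was lost without siPRMT8 replicate 1 (0.0534), 2 (0.0776) or 3 (0.0954) or siSCR replicate 1 (0.0692) or 3 (0.0822). Col6a2, the gene next to Col6a1 on chromosome 10, was 0.22 below siSCR in siPRMT8 without passing (adjusted p = 0.0854). For Col6a1 and Col6a3, the passing differences were against siSCR alone, the control in which both had their highest group mean.

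Col8a1 encodes a chain of a short-chain collagen that forms hexagonal networks beneath endothelium and in the cornea. It measured 7.72, 7.95 and 8.03 in D3, 8.10, 7.80 and 7.81 in siSCR, 7.71, 7.30 and 7.48 in siPRMT1 and 7.50, 7.79 and 7.77 in siPRMT8. The siPRMT1 arrays lay below both controls, with replicate 1 just under the lowest D3 array. Col8a1 fell by 0.41 against siSCR (1.33-fold lower; adjusted p = 0.043) and by 0.40 against D3 (1.32-fold lower; adjusted p = 0.0351) in siPRMT1. In siPRMT8 it was 0.22 and 0.21 lower without passing (adjusted p = 0.239 for both). The call against siSCR was lost without siPRMT1 replicate 2 (0.103) or 3 (0.106) or siSCR replicate 1 (0.106), 2 (0.0728) or 3 (0.0765), and that against D3 without siPRMT1 replicate 2 (0.0912) or 3 (0.0839) or D3 replicate 2 (0.101) or 3 (0.123). In the fit of the 2 groups neither passed (0.123 and 0.0546), and with no filter the call against siSCR was lost as well (0.0548). Its partner Col8a2 did not pass and lay 0.23 above siSCR in siPRMT1 (95% interval -0.0857 to 0.548).

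Of the 23 tested chains of this class, 18 passed nowhere, Col6a2 and Col8a2 among them, and Col10a1 and Col28a1 were not tested. Among those 18, differences between siPRMT1 and D3 reached 0.29 for Col13a1 (adjusted p = 0.067), a transmembrane collagen, and for Col6a5 (adjusted p = 0.0527). Col17a1, the transmembrane collagen of hemidesmosomes, was 0.23 above D3 in siPRMT8 (adjusted p = 0.0921). The 3 chains of type IX collagen, Col9a1, Col9a2 and Col9a3, had their highest value in siPRMT1 replicate 2, at 6.42, 7.44 and 7.69. Col25a1, a transmembrane collagen of neurons, had group means between 5.92 and 6.03.

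Among basement membrane chains, limma called none of the 8 in any of the 6 comparisons, and 2, 1, 0 and 1 of them had an unadjusted p under 0.05 in siPRMT1 and siPRMT8 against siSCR and in siPRMT1 and siPRMT8 against D3. Col4a1 and Col4a2 are neighbours on chromosome 8 and build the common type IV trimer. Col4a1 measured 8.69, 8.60 and 8.69 in D3, 8.47, 8.52 and 8.52 in siSCR, 8.66, 9.05 and 8.65 in siPRMT1 and 8.62, 8.46 and 8.50 in siPRMT8. Col4a2 measured 8.55, 8.38 and 8.57 in D3, 8.34, 8.37 and 8.39 in siSCR, 8.46, 8.81 and 8.41 in siPRMT1 and 8.47, 8.31 and 8.38 in siPRMT8. Both were highest in siPRMT1 replicate 2, and the other siPRMT1 arrays lay within the range of D3. Col4a1 was 0.28 above siSCR in siPRMT1 (95% interval 0.0717 to 0.492; adjusted p = 0.062) and 0.12 above D3 (-0.0868 to 0.333). Col4a2 was 0.20 above siSCR (-0.0195 to 0.411; adjusted p = 0.187). In siPRMT8 they differed from siSCR by 0.022 and 0.021, with intervals of -0.188 to 0.232 and -0.194 to 0.236.

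The laminin chains Lama1 and Lamb1, which share basement membranes with type IV collagen, were also highest in siPRMT1 replicate 2, at 11.04 and 10.86, and both rose in siPRMT1 against siSCR by 0.29 (adjusted p = 0.0433) and 0.28 (adjusted p = 0.0424). Without siPRMT1 replicate 2 the differences were 0.19 each and did not pass (adjusted p = 0.0954 and 0.0915), and both calls held only without siPRMT1 replicate 1 (adjusted p 0.0559 to 0.145 without any other array of the 2 groups). Against D3 neither passed in siPRMT1, with differences of -0.03 and -0.02. In siPRMT8 Lama1 and Lamb1 both fell against D3, by 0.33 each (adjusted p = 0.0204 and 0.0151). Both of these calls were lost without siPRMT8 replicate 3 or D3 replicate 1 or 3 (0.0541 to 0.0777), and that of Lama1 also without siPRMT8 replicate 2 (0.067). Of the 8 markers of parietal or primitive endoderm, an extraembryonic tissue rich in basement membrane, 4 rose and none fell in siPRMT1 against siSCR. Of all genes tested, 7.18% were higher and 11.6% lower there. Dab2 rose by 0.53 and Gata6 by 0.44. Against D3, 2 of the 8 (Dab2 and Gata6) rose and 1 fell in siPRMT1, and 2 fell in siPRMT8. Over all genes tested the shares against D3 were 11.7% higher and 14.7% lower in siPRMT1, and 12.5% and 15.2% in siPRMT8. Gata6 lost its call against D3 without siPRMT1 replicate 2 (adjusted p = 0.0695) or D3 replicate 2 (0.11) or 3 (0.0634). Dab2 lost it without D3 replicate 2 (0.0687). The mean level of these 8 markers was 8.05 to 8.17 in D3, 7.90 to 7.95 in siSCR, 8.14 to 8.32 in siPRMT1 and 7.85 to 8.02 in siPRMT8, and their part in the values of Col4a1 and Col4a2 was not tested. The tissue-restricted chains Col4a3, Col4a4, Col4a5 and Col4a6 had group means between 5.59 and 6.61, and Col4a5 was 0.20 above siSCR in siPRMT8 (adjusted p = 0.071). Col18a1, whose cleaved end is endostatin, measured 7.86 in siSCR replicate 1 and 7.16 to 7.51 in the other 11 arrays. It was 0.27 below siSCR in siPRMT8 without passing (adjusted p = 0.143). Col15a1, its relative, had group means that spanned 0.04.

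No collagen passed between the 2 controls or between the 2 knockdowns in limma, where 0.154% of all genes tested passed in each comparison (0.0602% higher and 0.0936% lower in siSCR than in D3, and 0.0869% higher and 0.0669% lower in siPRMT1 than in siPRMT8). At an unadjusted p under 0.05, 3 collagens differed between siSCR and D3 (Col18a1, Col6a1 and Col6a3) and 2 between siPRMT1 and siPRMT8 (Col4a1 and Col12a1), and the lowest adjusted p values were 0.442 and 0.317. The fit with the replicate number as a block also gave 0 between siSCR and D3. The arrays did not overlap for 6 of the 42 tested collagens between siSCR and D3 (14.3%, against 20.3% of all genes tested) and for 4 between the knockdowns (9.52%, against 15.8%). The members' median difference was 0.042 between siSCR and D3 and 0.055 between siPRMT1 and siPRMT8.

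Over the 12 arrays, the collagens deviated together most in siPRMT1 replicate 2. That array had the highest value for 28 of 44 members and for 20.3% of all genes tested. Its median deviation from the 12-array mean was 0.15 over fibrillar chains, 0.32 over basement membrane chains and 0.22 over other chains, and the class medians of the other 11 arrays lay between -0.13 and 0.11. The lowest value was in D3 replicate 2 for 15 of 44 members (8.67% of all genes tested) and in siPRMT8 replicate 3 for 10 (8.29%). For siPRMT1 replicate 2 against the mean of siPRMT1 replicates 1 and 3, the members' median difference was 0.26, with 36 above 0 and 8 below. Over genes tested the median was 0.0032, with 0.079 in the lower and -0.061 in the upper part when genes were divided at the median by mean value; 39 of the 42 tested members belong to the lower part. The members below 0 were Col1a2 (-0.32), Col8a1 (-0.29), Col12a1 (-0.24), Col18a1 (-0.19), Col3a1 (-0.16), Col6a3 (-0.082), Col6a2 (-0.053) and Col28a1 (-0.028). All 5 collagens that fell in siPRMT1 against siSCR are among them, but siPRMT1 replicate 2 itself entered those calls, so the 2 lists are not independent. The median SD of the members was 0.170 in siPRMT1, 0.118 in siPRMT8, 0.0689 in siSCR and 0.0755 in D3. Over all genes tested it was 0.122, 0.0796, 0.0979 and 0.0614, so these too spread most in siPRMT1.

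**Figure D3:**
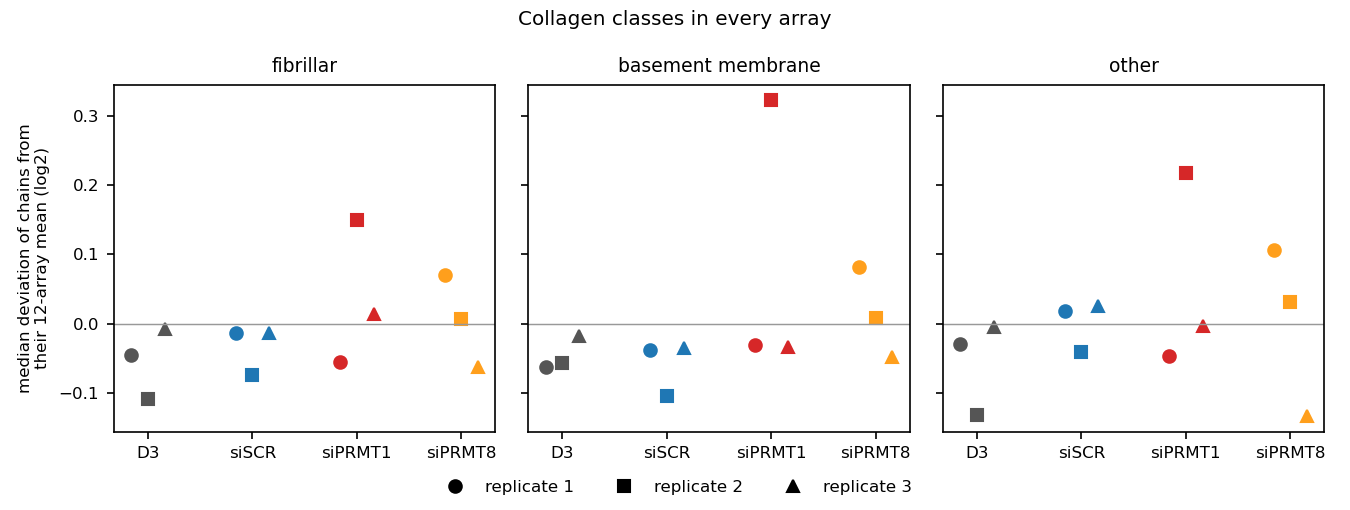
Median deviation of the chains of each class from their 12-array mean (log2) in every array; symbols mark the replicate. The array siPRMT1 replicate 2 is highest in each class, at 0.15, 0.32 and 0.22.

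Without siPRMT1 replicate 2, 3 collagens passed against siSCR and 2 against D3, in place of 5 and 4. Of the 5 against siSCR, Col12a1 and Col1a2 kept their calls, and Col3a1, Col6a3 and Col8a1 lost theirs. The other collagen that then passed against siSCR had passed in no comparison with all arrays. Without siPRMT1 replicate 1, 7 and 8 passed, of which 2 and 6 were higher. Without siSCR replicate 1, 4 passed in siPRMT1 and 4 in siPRMT8, in place of 5 and 6; that array differed from the mean of siSCR replicates 2 and 3 by a median of 0.041 over the members, and by 0.51 for Col18a1.

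**Figure D4:**
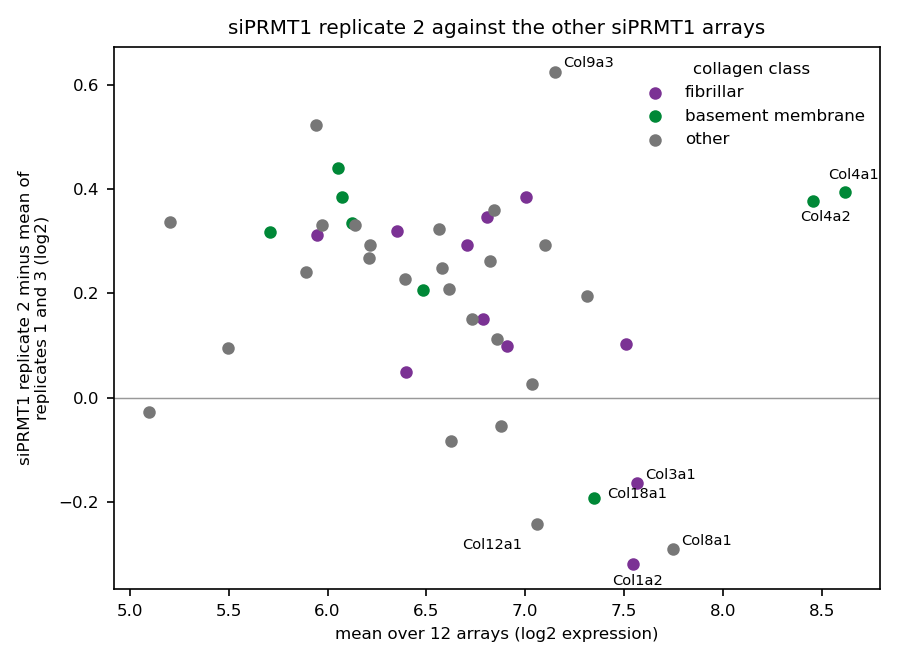
Difference of siPRMT1 replicate 2 from the mean of siPRMT1 replicates 1 and 3 (log2, vertical axis) against the mean over 12 arrays (log2 expression, horizontal axis) for the 44 collagens, coloured by class. Of the points, 36 lie above 0, with Col9a3 highest at 0.62, and 8 lie below, with Col1a2 lowest at -0.32; values of different probe sets also depend on their probes.

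Genes that make, process or bind collagen were counted from lists. Of all genes tested, 7.18% were higher and 11.6% lower in siPRMT1 against siSCR, and 10.7% and 13.2% in siPRMT8. Against D3 these shares were 11.7% and 14.7% in siPRMT1, and 12.5% and 15.2% in siPRMT8. The lists are short and were not tested against these shares. Of 18 tested genes of collagen synthesis and folding, 1 fell in siPRMT1 and 2 fell in siPRMT8 against siSCR, and none rose. Against D3, 1 fell in siPRMT1, and 4 fell and 1 rose in siPRMT8. P4ha3, a catalytic subunit of the prolyl 4-hydroxylase that stabilises the triple helix, measured 7.77, 7.71 and 7.60 in D3, 7.53, 7.76 and 7.54 in siSCR, 6.82, 6.88 and 6.92 in siPRMT1 and 6.84, 7.12 and 6.94 in siPRMT8. All knockdown arrays lay below all control arrays, and against siSCR P4ha3 fell by 0.74 (adjusted p = 0.00062) and 0.64 (adjusted p = 0.00107). Of 12 tested genes of procollagen processing and cross-linking, 1 fell in siPRMT1 against siSCR (Lox, a cross-linking oxidase, by 0.77) and 2 in siPRMT8 (Pcolce by 0.61 and Bmp1 by 0.22). Pcolce held its call only without siPRMT8 replicate 2, and Bmp1 only without siSCR replicate 1 (adjusted p 0.0749 to 0.142 without any other array). Against D3 the direction was the other: 2 rose and none fell in siPRMT1 (Pcolce2 by 0.50 and Loxl4 by 0.22), and 1 rose and none fell in siPRMT8 (Pcolce2 by 0.41). Loxl4 lost its call without D3 replicate 1 or 2 or any siPRMT1 array (0.0765 to 0.179), Pcolce2 in siPRMT1 without D3 replicate 2 (0.051), and Pcolce2 in siPRMT8 without any single array of either group (0.0521 to 0.0999). Lox measured 7.31, 6.76 and 6.48 in siSCR and 6.26 to 6.29 in D3, so its siSCR arrays stood above those of D3. Of 9 collagen receptors, Itga2 and Ddr1 fell in siPRMT1 by 0.48 each, and Ddr2 and Itga2 in siPRMT8 by 0.51 and 0.46, against siSCR. Ddr2 held only without siPRMT8 replicate 2 (adjusted p 0.0546 to 0.155 without any other array), and Itga2 was lost in siPRMT8 without siPRMT8 replicate 3 (0.0513). Against D3, Ddr1 alone of the 9 passed, and fell by 0.63 in siPRMT1 and 0.36 in siPRMT8; the latter was lost without siPRMT8 replicate 2 (0.0588) or 3 (0.0578) or D3 replicate 1 (0.0539) or 2 (0.0711).

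Of 11 tested proteins that sit on collagen fibrils, 4 fell in each knockdown against siSCR and none rose: Dcn, Postn, Prelp and Thbs2. Against D3, 3 fell in each knockdown and none rose: Dcn, Postn and Prelp. Of all genes tested, 11.6% fell in siPRMT1 and 13.2% in siPRMT8 against siSCR, and 14.7% and 15.2% against D3. Without any single D3 array, Postn lost its calls against D3 in both knockdowns and Prelp lost its call in siPRMT8 (adjusted p 0.0692 to 0.115). Dcn, the proteoglycan decorin, which binds type I fibrils, measured 8.41, 8.41 and 8.33 in D3, 8.69, 8.73 and 8.65 in siSCR, 7.69, 6.64 and 7.51 in siPRMT1 and 7.06, 7.96 and 7.58 in siPRMT8. All knockdown arrays lay below all control arrays, with siPRMT1 replicate 2 lowest. Dcn fell by 1.41 (adjusted p = 0.0037) and 1.16 against siSCR and by 1.10 and 0.85 against D3; the last call was lost without siPRMT8 replicate 1 or 3 or any D3 array (adjusted p 0.0606 to 0.104), and the other 3 held without any single array. Postn, the matrix protein periostin, fell by 0.88 and 0.87 against siSCR and was also lowest in siPRMT1 replicate 2 (6.22). Without that array Postn fell by 0.52 in siPRMT1 against siSCR (adjusted p = 0.0183) and was 0.36 below D3 without passing (adjusted p = 0.0542). Against siSCR, its siPRMT1 call was lost without siSCR replicate 1 (0.0506), 2 (0.0825) or 3 (0.0622). Its siPRMT8 call against siSCR held only without siPRMT8 replicate 2 (0.0502 to 0.0896 without any other array). Thbs2 was lost in siPRMT1 without siPRMT1 replicate 2 (0.0576) or siSCR replicate 1 (0.0529), and in siPRMT8 it held only without siSCR replicate 3 (0.0591 to 0.119). Among 8 collagen-degrading enzymes and their inhibitors, Timp4, Timp3, Timp2 and Mmp14 fell and Ctsl rose in both knockdowns against siSCR; Timp4 fell by 1.08 and 1.03, and its calls and those of Timp3 held without any single array. Mmp14 was lost in siPRMT1 without siPRMT1 replicate 2 or 3 or siSCR replicate 1 or 2 (adjusted p 0.0554 to 0.0715) and in siPRMT8 without siPRMT8 replicate 1 or 3 or siSCR replicate 1 (0.0501 to 0.0887). Timp2 was lost in siPRMT8 without siPRMT8 replicate 1 or 3 or siSCR replicate 2 or 3 (0.0553 to 0.0756), and Ctsl in siPRMT1 without siSCR replicate 2 (0.0575) or 3 (0.0577). Against D3, 3 of the 8 fell in each knockdown, and 1 rose in siPRMT8. Of 14 basement membrane partners, 2 rose and 1 fell in siPRMT1 and 3 fell in siPRMT8 against siSCR. Agrn, the proteoglycan agrin, fell by 0.72 and 0.60 against siSCR, and held this without any single array. Against D3, 2 fell in siPRMT1 and 6 in siPRMT8 and none rose, the latter led by Nid1 and Agrn (both by 0.70). In each of these lists none passed between siSCR and D3 or between the knockdowns. Fkbp10, Adamts2, Loxl2 and Gp6 were not analysed here.

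Among markers of cells that make fibrillar collagen, the calls against siSCR went in both directions beside the falls of Col1a2 and Col3a1. Of all genes tested, 7.18% were higher and 11.6% lower in siPRMT1 against siSCR, and 10.7% and 13.2% in siPRMT8. Against D3 these shares were 11.7% and 14.7% in siPRMT1, and 12.5% and 15.2% in siPRMT8. Of 10 fibroblast or mesenchyme markers, 7 were tested, and Lum, Dpt and Meox1 lay under the filter. Against siSCR 2 rose (Pdgfra and Twist2, by 0.30 and 0.31) and 1 fell (Dcn) in siPRMT1, and 2 rose (Prrx1 and Twist2, by 0.34 and 0.31) and 2 fell (Dcn and Pdgfrb, the latter by 0.52) in siPRMT8. Twist2 was lost in siPRMT1 without siPRMT1 or siSCR replicate 2 or 3 and in siPRMT8 without siPRMT8 replicate 1 or 3 or siSCR replicate 2 or 3 (adjusted p 0.0928 to 0.162), Pdgfra without siPRMT1 replicate 2 or 3 or siSCR replicate 1 or 3 (0.052 to 0.107), Prrx1 without siPRMT8 or siSCR replicate 3 (0.0552 and 0.0546) and Pdgfrb without siPRMT8 replicate 3 (0.0522). Against D3, 1 fell and none rose in siPRMT1, and 3 fell and 1 rose in siPRMT8. The mean level of all 10 was 6.488 to 6.555 in D3, 6.482 to 6.557 in siSCR, 6.316 to 6.476 in siPRMT1 and 6.384 to 6.488 in siPRMT8. On this mean the siPRMT1 arrays lay below all control arrays, by a small margin, and the siPRMT8 arrays overlapped with siSCR. Of meningeal markers, 1 of 6 tested rose in siPRMT1 and 3 rose in siPRMT8 against siSCR, with none lower; against D3, 1 fell in siPRMT1, and 2 rose and 1 fell in siPRMT8. Of 6 chondrocyte markers, 1 fell in siPRMT1 and 1 rose in siPRMT8 against siSCR, and against D3 1 rose and 2 fell in siPRMT1 and 1 fell in siPRMT8. Of 7 endothelial markers, 2 rose and 1 fell in siPRMT1 and 1 rose and 1 fell in siPRMT8 against siSCR, and against D3 2 rose in siPRMT1 and 1 rose and 1 fell in siPRMT8. Of 7 muscle or smooth muscle markers none passed against siSCR, and 2 rose in each knockdown against D3. Of 8 neural progenitor markers, 1 rose and 2 fell in siPRMT1 and 3 rose and 1 fell in siPRMT8 against siSCR, and against D3 4 fell in siPRMT1 and 1 rose and 2 fell in siPRMT8. Of the 8 neuron markers 7 fell in siPRMT1 and 5 in siPRMT8 against siSCR, and all 8 fell in both against D3. The part of any of these cell types in the collagen values was not tested.

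By the RefSeq gene order, 15 collagens lie next to another collagen, in 8 pairs. Col3a1 and Col5a2 are neighbours on chromosome 1, and in siPRMT8 against siSCR Col3a1 fell by 0.21 while Col5a2 rose by 0.25. When the 6 knockdown arrays were set against the 6 control arrays, an order looked at after the values were known, Col12a1, Col3a1 and Col6a3 lay lower in every knockdown array and Col5a2, Col5a3 and Col4a6 higher, while 38 of the 44 overlapped. Among all genes tested, 9.49% were lower and 7.06% were higher in this sense.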

How the data were processed

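The deposited table holds log2 values, 1 per probe set and array, for 35556 probe sets on 12 arrays; the scale was read from the values (0.97 to 13.54), and the authors' background correction, normalisation and software are steps not given in the sources used here. RNA was labelled as biotinylated single-stranded cDNA, per the labels' protocols. The values were used as they stand, with array medians within 0.023 of each other. No detection calls were at hand, so a low value cannot be told from background, and the number of arrays limits the precision.

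Probe sets with 1 symbol in the platform annotation (21789; 1621 had several and 12146 none) were named through RefSeq GRCm38.p6 by gene ID, where 21698 matched. The probe set with the highest mean stood for a gene, which gave 19938 genes, and the lowest 25% by mean were left out, which gave 14953. These were fitted in limma 3.58.1 (R 4.3.3; lmFit, eBayes; 4 group means, 8 residual degrees of freedom). P-values were adjusted by Benjamini-Hochberg over all 14953 genes at 0.05, and SE stands for the moderated standard error; "rose" and "fell" are used of what passed. The script was tested on simulated data.

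Members, classes and lists were chosen with earlier results of these data known. The text gives values in every array for chain genes that passed in at least 1 of 6 comparisons, by class, at most 8 a class, with partner chains of the same trimer, and the other chains by count or range. For every other list the plan was to name up to 3 higher and 3 lower passing genes per comparison. It was not followed throughout: in some comparisons passing genes are only counted, and others are named as examples chosen after their values were seen.

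Same-numbered arrays deviated together above 0.1 in all 3 pairs only for siSCR and D3 (r 0.161, 0.194 and 0.107 across genes). For siPRMT1 and D3 r was 0.29, 0.267 and -0.0353, and for siPRMT1 and siPRMT8 -0.416, -0.564 and 0.0417. Alternatives were quantile normalisation, other filters, the replicate block (values in the closing section), fits of 2 groups, a trended and robust variance, the mean over probe sets and leaving out each array.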

Additional observations from a re-analysis of the deposited data

How the results depend on the processing

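Of the 17 calls of collagen genes over the comparisons, 5 were kept in all alternatives: Col12a1 in 4 and Col1a2 in siPRMT8 against siSCR. No difference of a gene that passed changed sign in any alternative. In siPRMT1 against siSCR, 5 collagens passed; 6 did with the lowest 50% of genes left out (of 14 tested), 3 with no filter, 1 in the fit of the 2 groups only and 3 with the replicate block, and between 1 and 7 when 1 array was left out (1 without siSCR replicate 3; 2 without siPRMT1 replicate 3 or siSCR replicate 2; 7 without siPRMT1 replicate 1). In siPRMT8 against siSCR, 6 passed; 3 did with the lowest 50% of genes left out, which keeps fewer members, 5 with the block, and between 3 and 5 with 1 array left out (3 without siPRMT8 replicate 1 or 3 or siSCR replicate 3). In siPRMT1 against D3, 4 passed; 2 did with quantile normalisation, 2 with no filter, 1 in the 2-group fit, 2 with a trended robust variance and 1 with the block, and between 1 and 8 with 1 array left out (1 without D3 replicate 2 or 3; 8 without siPRMT1 replicate 1). In siPRMT8 against D3, 2 passed, 4 in the 2-group fit, and 1 to 2 with 1 array left out. Class medians moved by more than the spread between replicates in 13 cases, 10 of them with the lowest 50% left out; in siPRMT1 against siSCR the fibrillar and other medians turned from 0.085 and 0.073 to -0.22 and -0.086 there, in siPRMT8 against siSCR from 0.076 and 0.018 to -0.17 and -0.099, in siPRMT1 against D3 from 0.096 and 0.12 to -0.12 and -0.090, and in siPRMT8 against D3 all 3 classes fell below 0 (-0.067, -0.11 and -0.10). The block ended the calls of Col3a1 in both knockdowns against siSCR (adjusted p = 0.0551 and 0.0602). It also ended those of Col8a1 in siPRMT1 against siSCR and D3 (0.0696 and 0.0579), and of Col14a1 and Col5a3 in siPRMT1 against D3 (0.051 and 0.079). The labels do not say that a shared replicate number pairs arrays in any comparison. Leaving out 1 array was added for the listed genes after seeing the data. Apart from the settings that test fewer genes or samples, the cause was not tested. The counts of 0 between siSCR and D3 and between siPRMT1 and siPRMT8 held in all alternatives, the replicate block included. For the 9 genes, differences lost the threshold in 26 cases, gained it in 4 and kept their side in 324 under other settings, and in 47, 3 and 274 cases with 1 array left out. Without detection calls, members of low value may lie at background, where differences are compressed.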
